A study of Mus musculus with 4 samples.

Results

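Malignant sarcoma cells without transcripts of the proliferation genes Mki67 and Top2a were described in tumors of mice given vehicle or digoxin. A cell was called non-cycling where it had no unique molecular identifier (UMI, the tag that counts an RNA molecule) of Mki67 and none of Top2a. This rule took 4584 of the 18963 malignant cells (24.2%), out of 31611 cells of any kind in the series. The members were thus chosen by measured RNA of Mki67 and Top2a, so levels in these cells against levels in the other malignant cells are described without a test. Tests were made of the effect of digoxin, within the cells and between both cell sets. The remaining 14379 malignant cells, with at least 1 UMI of either gene, are called cycling here as a short name for the rule. By the authors' separate table of non-malignant cells, 12648 cells were host cells, among them 203 fibroblasts.

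The tumors were allografts of a mouse sarcoma with the genotype KrasLSL-G12D/+;Trp53flox/flox on a 129/SvJae background, grown in the hind limb, and this genotype and strain are given for all 4 samples. Vehicle mice received PBS and digoxin mice received 2 mg/kg digoxin, made up in DMSO and diluted in PBS. Injections were intraperitoneal and spaced by 24 h, and tumors were taken after 4 doses. Each group held 2 mice, and the mouse is the replicate. Whether the allografts came from a single tumor line, and the age of the mice, are not given in the sources used here. Tumors were dissociated with enzymes and 3′ ends were sequenced in droplets. The host of vehicle mouse 2 differed from the others: Xist was at 0 CPM in its T cells and at 1288, 1212 and 1006 CPM in those of vehicle mouse 1, digoxin mouse 1 and digoxin mouse 2, while Ddx3y in its T cells was 100.4 CPM against 1.38 to 3.49 CPM in the others. By Xist and Ddx3y RNA, the host of vehicle mouse 2 was male and the other hosts female. Host sex was therefore unbalanced between the treatments, both digoxin hosts being female, and its part in the digoxin comparisons was not tested. Levels are CPM averaged over cells, a gene's share of the UMIs of a cell on a scale where 10000 CPM is 1%.

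Mki67 and Top2a mark cells in the S, G2 and M phases of the cell cycle, and a resting or G1 cell makes little of either. Many genes of mitosis share promoter elements, the cell cycle homology element TTTGAA and the CCAAT box, through which they are held off in resting cells and switched on in G2. Cells of mesenchymal tumors make much of the collagen-rich matrix around them, and in fibroblasts matrix production and division tend to be separate states. Digoxin, a cardiac glycoside, blocks the sodium pump of the cell membrane.

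The promoters of both genes of the rule, and of Ube2c, which encodes the mitotic ubiquitin-conjugating enzyme and is among the genes lowest in the non-cycling cells, are shown because they carry both elements. Of the rule genes and the 10 lowest genes, 9 had a promoter window, and these are the 3 of them that held both. Each line gives the 230 bases before the annotated start on the gene's strand, from RefSeq on GRCm38.p6, with TTTGAA and CCAAT on either strand in capitals. The stretches lie at chr7:135716380-135716609 (Mki67, minus strand), chr11:99024190-99024419 (Top2a, minus strand) and chr2:164769699-164769928 (Ube2c, plus strand).
Mki67: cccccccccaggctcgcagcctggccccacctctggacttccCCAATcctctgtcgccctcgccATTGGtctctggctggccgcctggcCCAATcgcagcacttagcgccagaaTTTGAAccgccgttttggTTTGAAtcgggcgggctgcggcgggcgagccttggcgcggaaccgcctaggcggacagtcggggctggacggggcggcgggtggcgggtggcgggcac
Top2a: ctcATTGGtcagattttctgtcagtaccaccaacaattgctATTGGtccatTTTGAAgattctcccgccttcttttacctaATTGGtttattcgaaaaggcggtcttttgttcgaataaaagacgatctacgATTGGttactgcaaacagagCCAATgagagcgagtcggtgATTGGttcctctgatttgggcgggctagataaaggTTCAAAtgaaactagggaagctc
Ube2c: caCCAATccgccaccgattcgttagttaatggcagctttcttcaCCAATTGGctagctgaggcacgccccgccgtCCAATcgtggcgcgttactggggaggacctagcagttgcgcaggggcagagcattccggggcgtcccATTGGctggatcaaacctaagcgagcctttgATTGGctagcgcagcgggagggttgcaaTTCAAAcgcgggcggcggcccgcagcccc
The Mki67 stretch held 2 copies of TTTGAA and 3 of CCAAT, the Top2a stretch 2 and 6, and the Ube2c stretch 1 and 6, where a CCAAT on each strand of Ube2c overlap in CCAATTGG. Each promoter window of RefSeq ran from 250 bases before to 50 after a start, and only the 250 bases before it were searched. Over all 32851 windows, 15.99% held TTTGAA, 33.8% held CCAAT and 5.55% both, on either strand. Counted by gene, these were 18.3%, 37.5% and 6.45% of 27025 genes. Of the 36 genes in the G2 and mitosis list, 32 had a window, of which 10 held TTTGAA, 24 held CCAAT and 9 held both. Of the 26 matrix genes, 16 had a window, of which 4 held TTTGAA, 6 held CCAAT and 0 held both. Of the 10 genes highest in the non-cycling cells, 6 had a window, of which 3 held TTTGAA, 1 held CCAAT and 1 held both. A match describes the letters only and is not evidence of a bound site.

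The non-cycling cells were 937 of 4507 malignant cells in vehicle mouse 1 (20.8%, 95% exact binomial interval 19.6% to 22.0%) and 1824 of 6269 in vehicle mouse 2 (29.1%, 28.0% to 30.2%). In the digoxin mice they were 1017 of 4211 (24.2%, 22.9% to 25.5%) and 806 of 3976 (20.3%, 19.0% to 21.6%). These intervals cover counting error only. Vehicle mouse 2 was the highest and digoxin mouse 2 the lowest, and the groups overlapped. Vehicle mice averaged 24.9% ± 5.87 (SD, n = 2) and digoxin mice 22.2% ± 2.74 (SD, n = 2), a difference of -2.73 percentage points (two-sided exact permutation test over mice, p = 0.667). With 2 mice a group this test cannot give a p under 0.3333. Without vehicle mouse 2 the difference turned to 1.42 percentage points.

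Absence of a transcript depends on how deeply a cell was sampled. The median was 34751, 30383, 32805 and 31878.5 UMIs per non-cycling cell in vehicle mice 1 and 2 and digoxin mice 1 and 2, against 68242.5, 58402, 68218.5 and 67138.5 UMIs per cycling cell in the same order. The non-cycling cells were the shallower set in each mouse. Among malignant cells under 20000 UMIs, 51.5%, 68.3%, 62.2% and 46.1% were non-cycling, and above 80000 UMIs 1.61%, 1.30%, 1.48% and 1.08% were. Thinning every cell to 20000 UMIs, which left out 629 vehicle and 581 digoxin cells below that depth, gave shares of 35.6%, 42.7%, 39.1% and 32.7%. The order of the mice was the same after thinning, and the difference was -3.29 percentage points (exact permutation p = 0.667).

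**Figure D1:**
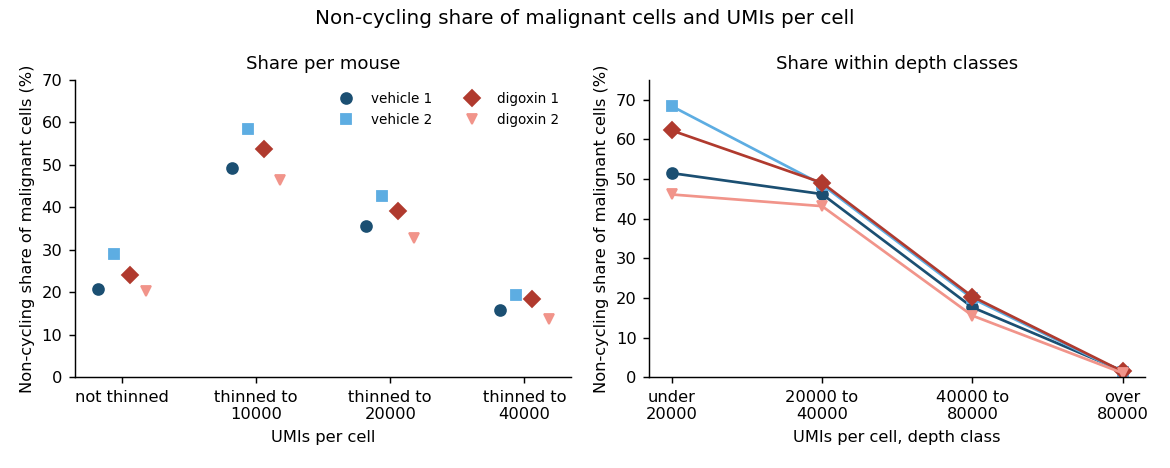
Left, the non-cycling share of malignant cells (%) per mouse, without thinning and with each cell thinned to 10000, 20000 or 40000 UMIs. Right, the share within classes of UMIs per cell, with a line for each mouse. Vehicle mice are blue and digoxin mice red. Vehicle mouse 2 has the highest share and digoxin mouse 2 the lowest at each thinned depth on the left, and on the right the share drops from between 46.1% and 68.3% under 20000 UMIs to under 2% above 80000 UMIs in each mouse.

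A stricter rule that also asked for no UMI of Cdk1, Ccna2, Ccnb1, Birc5, Ube2c, Tpx2 and Nusap1, all genes of G2 or mitosis, kept 215, 557, 289 and 153 cells. These were 22.9%, 30.5%, 28.4% and 19.0% of the non-cycling cells of vehicle mice 1 and 2 and digoxin mice 1 and 2. Most non-cycling cells thus held at least 1 UMI of another mitotic gene, and the share that held none was lowest in digoxin mouse 2.

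The label of the cells was checked with their identity genes. Cdkn2a, which encodes the cell cycle inhibitors of the Ink4a/Arf locus, was at 1108, 1138, 1081 and 1039 CPM in non-cycling cells of vehicle mice 1 and 2 and digoxin mice 1 and 2. In host fibroblasts it was at 24.7, 27.6, 25.6 and 24.1 CPM. The tumor cells lay far above the host fibroblasts in each mouse. The Y-linked helicase gene Ddx3y was at 58.8, 53.1, 60.2 and 56.1 CPM in non-cycling cells and at 0.509, 89.3, 0 and 0.987 CPM in host fibroblasts, so it set the tumor cells apart in the hosts other than vehicle mouse 2. Trp53, whose alleles are conditional in this model, was at 5.17, 5.72, 5.18 and 5.99 CPM in non-cycling cells, and at 67.3, 53.4, 81.0 and 64.7 CPM in host fibroblasts. All 4 libraries were low for Trp53 in the tumor cells.

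Col1a1, the main chain of type I collagen, was at 3318, 3056, 2562 and 2483 CPM in the non-cycling cells and at 13222, 9855, 11832 and 14430 CPM in host fibroblasts. Fap, a surface protease of activated fibroblasts, was at 41.5, 39.7, 25.2 and 28.8 CPM against 82.1, 124.4, 98.7 and 83.6 CPM in host fibroblasts. In T cells, which should lack it, Fap was between 0 and 0.425 CPM. Both genes were thus present in the non-cycling tumor cells, below host fibroblasts. Of the skeletal muscle lineage list (16 genes, 9 in the table), 3 passed the filter on low values. Of these genes, Cdkn2a and Trp53 set the malignant cells apart from host fibroblasts in all 4 mice, and Ddx3y did so in 3.

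**Figure D2:**
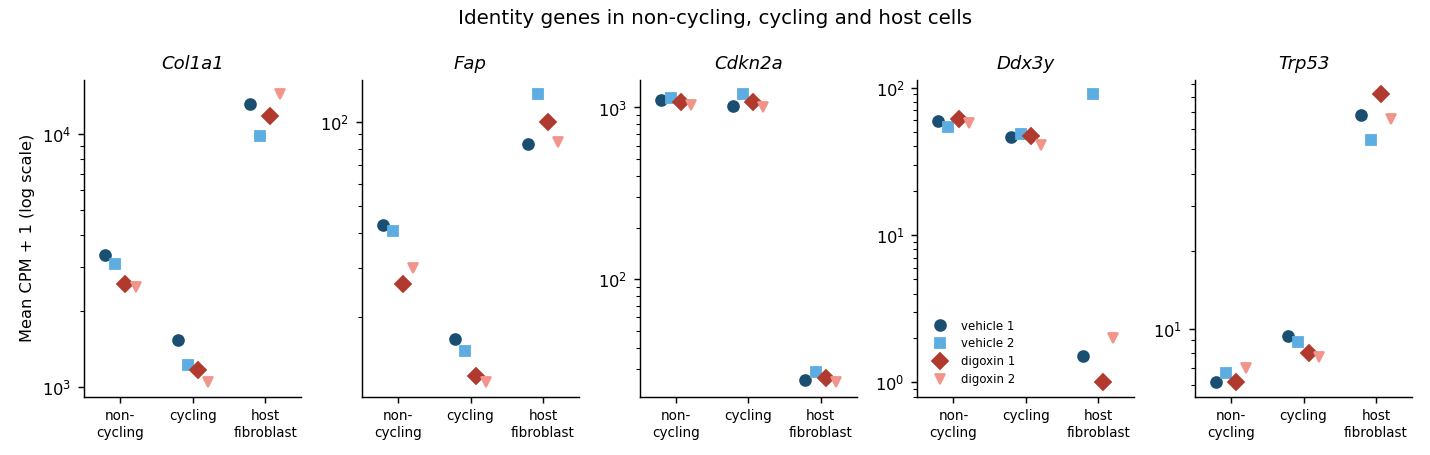
Mean CPM + 1 on a log axis of 5 identity genes in non-cycling malignant, cycling malignant and host fibroblast cells, with a point for each mouse (n = 2 a group; vehicle blue, digoxin red). Cdkn2a is between 1009 and 1195 CPM in malignant cells and under 28 CPM in host fibroblasts, Ddx3y is near 0 in host fibroblasts except in vehicle mouse 2, and Trp53 is under 10 CPM in malignant cells.

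Markers of other cell types were counted in the non-cycling cells. At least 2 UMIs of at least 3 macrophage markers were found in 7.68%, 7.89%, 8.06% and 9.80% of them (vehicle mice 1 and 2, digoxin mice 1 and 2), and in 20.1% to 25.9% of cycling cells. By the same criterion, T and NK cell markers were found in 0.295% to 0.640%, neutrophil markers in 0.110% to 0.640%, endothelial markers in 0% to 0.248%, dendritic cell markers in 1.99% to 2.85%, mast cell markers in 0% to 0.0983%, and B cell markers in 0% of non-cycling cells. Osteoclast markers were found in 2.45% and 2.08% with vehicle and in 0.983% and 0.620% with digoxin. The summed level of the 14 macrophage markers ranged from 345 to 598 CPM with vehicle and from 412 to 439 CPM with digoxin, with 0 markers absent. The 6 neutrophil markers summed to 20.9 and 23.5 CPM with vehicle and to 30.1 and 70.7 CPM with digoxin, and the 8 endothelial markers to 14.1 and 16.02 CPM against 24.0 and 49.3 CPM, with 1 neutrophil marker at 0 in vehicle mouse 2. The neutrophil and endothelial sums did not overlap between the groups, digoxin being higher, and the macrophage sums overlapped. The 12 T and NK cell markers were higher with digoxin as well, at 7.56 and 8.59 CPM against 7.48 and 6.12 CPM. The dendritic cell, B cell, epithelial, host fibroblast and erythroid sums overlapped. With 2 mice a group such separation is common: 15.7% of all genes tested were higher in both digoxin mice and 15.3% lower. The 5 mast cell markers were also higher with digoxin (14.5 and 1.19 CPM against 0.518 and 0.683 CPM), and the 6 osteoclast markers were lower (157 and 141 CPM against 172 and 239 CPM). Digoxin mouse 1, at 14.5 CPM of mast cell markers, had 1 cell marked for that type. The host fibroblast list, whose genes mesenchymal tumor cells share, marked 66.3% to 79.4% of non-cycling cells and was not used to leave cells out. The part of other cell types in the results below was tested no further than by leaving out marked cells. Xist, which cells with Y-linked RNA should lack, was at 7.76, 14.1 and 10.4 CPM in the non-cycling cells of vehicle mouse 1 and digoxin mice 1 and 2, and at 1.53, 4.64 and 3.48 CPM without the 421 cells that carried markers of another type.

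Against cycling cells, the non-cycling cells were lower in genes of the cell cycle and higher in genes of the matrix. The rule used this contrast, so what follows is a description and not a test. Of 12295 genes above 1 CPM, 335 (2.72%) were lower by at least 1 on the log2(mean CPM + 1) scale in each of the 4 mice, and 112 (0.911%) were higher by as much. All 36 genes of the G2 and mitosis list were lower in 4 of 4 mice (background 40.3%), with a median log2 difference of -2.99. All 30 S phase genes were lower, with a median of -1.38, and 11 of 12 genes of the G1 cyclins and kinases, with a median of -0.49. The difference was thus greatest for mitosis and smallest for G1.

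Hmmr, a spindle protein, was the lowest named gene, with 1.71, 0.991, 1.78 and 3.31 CPM in non-cycling cells of vehicle mice 1 and 2 and digoxin mice 1 and 2, and 65.5, 43.4, 52.2 and 66.4 CPM in cycling cells. Its log2 difference was -4.33 ± 0.29 (SD, n = 4 mice). Ube2c, whose promoter is printed above, was at 12.5, 9.41, 11.6 and 19.9 CPM against 173, 115, 143 and 179 CPM, a difference of -3.44 ± 0.25. The mean of either gene was lower in the non-cycling cells in all 4 mice. The other 8 named genes were the linker and core histone genes Hist1h1b (-4.19) and Hist1h2ap (-3.64), which belong to histone clusters with near-identical copies and are uncertain for that reason, the kinetochore genes Knl1 (-3.59), Cenpe (-3.58) and Cenpf (-3.46), the cyclin Ccna2 (-3.54), the chromosomal passenger Birc5 (-3.49) and the thymidine kinase Tk1 (-3.46). Ccnd1, the cyclin that drives entry from G1, was at 55.6, 51.4, 49.4 and 67.9 CPM in non-cycling cells and at 214, 203, 207 and 235 CPM in cycling cells.

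Cell cycle inhibitors were not uniformly higher. Of 16 inhibitor genes, 11 were higher in the non-cycling cells in all 4 mice (background 38.3%) and 1 was lower, with a median log2 difference of 0.36, and 0 reached 1 in 4 mice. With both cell sets given the same weights over classes of UMIs per cell, the median was 0.052. Gas1, a membrane protein of growth-arrested cells, was at 1061, 1262, 1055 and 883 CPM against 513, 663, 557 and 436 CPM in cycling cells. Cdkn1b, which encodes the inhibitor p27, was at 68.1, 83.7, 77.5 and 62.8 CPM against 46.3, 61.6, 52.5 and 45.9 CPM. Both genes were higher in the non-cycling cells of each mouse. Cdkn2a, in contrast, was at 1025, 1195, 1076 and 1009 CPM in cycling cells, a log2 difference of 0.02 ± 0.08 (SD, n = 4 mice).

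Of the 22 gene lists the matrix list had the highest median difference, 0.94, and 23 of its 26 genes were higher in the non-cycling cells in all 4 mice (all genes 38.3%), 8 of them by at least 1 (all genes 0.911%). Of the host fibroblast markers all 7 above 1 CPM were higher too, with a median of 0.95, or 0.37 on common weights over classes of UMIs per cell, and their part in the matrix difference was not tested. Col1a1 was at 1534, 1221, 1170 and 1043 CPM in cycling cells, which placed the non-cycling cells higher by 1.20 ± 0.10 on the log2 scale (SD, n = 4 mice). Col3a1, the fibrillar type III collagen, was higher by 1.21 ± 0.08, and Thbs2, an anti-angiogenic matrix protein, by 1.47 ± 0.06. Of the mesenchymal list, which shares members with the matrix list, 18 of 25 genes were higher in all 4 mice and 5 lower. Vim (vimentin) and S100a4, both mesenchymal genes, had log2 differences of -0.23 ± 0.05 and -0.99 ± 0.06.

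The 10 genes with the highest difference are given next. Eln (elastin) was at 91.4, 119, 88.4 and 97.4 CPM in non-cycling cells and at 24.0, 27.3, 26.7 and 20.9 CPM in cycling cells, a log2 difference of 1.96 ± 0.21. Clec3b (tetranectin, a plasminogen-binding protein) was at 170, 165, 195 and 152 CPM against 46.7, 42.4, 52.7 and 42.7 CPM, a difference of 1.86 ± 0.06. The mean of either gene was higher in the non-cycling cells in each mouse. The fibulins Fbln7 (1.71) and Fbln1 (1.68), the lipocalins Apod (1.69) and Lcn2 (1.61), the matrix protein Abi3bp (1.69), the collagen-binding integrin Itga1 (1.65), Fgl2 (1.64) and Pdgfrl (1.60) followed. Secreted genes associated with senescence were higher in all 4 mice in 14 of 19 cases above 1 CPM (all genes 38.3%), with a median of 0.67, among them the protease Mmp3 at 217, 288, 234 and 325 CPM against 80.2, 118, 99.1 and 103 CPM.

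The differences were graded along the UMIs of the rule genes. UMIs per cell rose along the same steps in each mouse. Their median went from 34751, 30383, 32805 and 31878.5 at 0 UMIs of the rule genes to 98315.5, 89345, 100850 and 92087 above 5. The part of UMIs per cell in these steps was not tested. Just outside the rule, cells with exactly 1 UMI of Mki67 and Top2a together numbered 728, 1234, 752 and 603, and had Col1a1 at 2641, 2098, 1995 and 1967 CPM. Cells with more than 5 UMIs had Col1a1 at 783, 474, 533 and 498 CPM. Fap went from 41.5, 39.7, 25.2 and 28.8 CPM at 0 UMIs through 29.4, 26.6, 23.5 and 24.4 CPM at 1 UMI to 6.07, 3.90, 3.65 and 3.44 CPM above 5. For both genes each step was downward in each mouse. Cdk1, the mitotic kinase, was at 20.1, 18.4, 18.8 and 24.4 CPM at 0 UMIs and at 23.1, 21.0, 23.5 and 26.7 CPM at 1 UMI, and reached 249, 221, 226 and 243 CPM above 5. Cdk1 was thus a little higher at 1 UMI than at 0 in each mouse, and most of its difference lay above 5 UMIs.

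**Figure D3:**
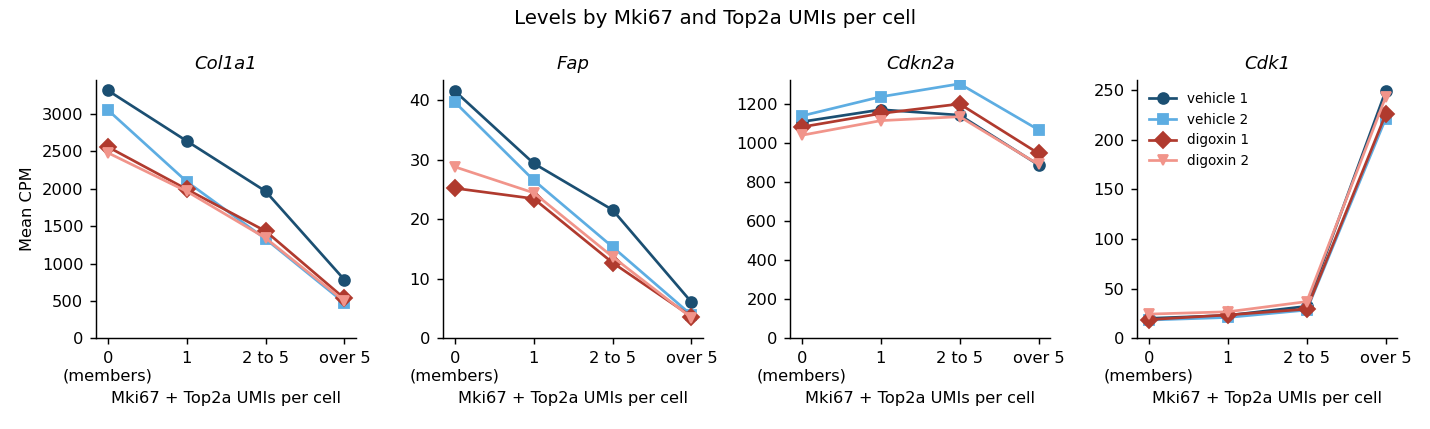
Mean CPM of Col1a1, Fap, Cdkn2a and Cdk1 (vertical axes, from 0) in malignant cells with 0, 1, 2 to 5 or more than 5 UMIs of Mki67 and Top2a together, with a line for each mouse (vehicle blue, digoxin red). Col1a1 and Fap drop at each step in each mouse, while Cdk1 stays under 40 CPM up to 5 UMIs and is above 220 CPM beyond. The median of all UMIs per cell rises at each step in each mouse.

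UMIs per cell moved with these differences. Both cell sets were given the weights of the non-cycling cells over 4 classes of UMIs per cell (limits 20000, 40000 and 80000), where the class above 80000 held 23, 17, 19 and 13 non-cycling cells. On these weights 103 genes in place of 335 were lower by at least 1 in all 4 mice, and 0 in place of 112 were higher. The median log2 difference of the matrix list was then 0.40, that of the G2 and mitosis list -1.93, that of the S phase list -0.71 and that of the G1 cyclins and kinases -0.26, so each kept its sign with a smaller size. The mesenchymal list went from 0.36 to 0.13. Eln differed by 0.81 and Col1a1 by 0.50 on this weighting. Within cells of 20000 to 40000 UMIs, Col1a1 was at 3864, 3485, 2949 and 2855 CPM in non-cycling cells and at 3127, 2341, 2435 and 2103 CPM in cycling cells of vehicle mice 1 and 2 and digoxin mice 1 and 2. The non-cycling cells were higher in each mouse at this depth. The part of UMIs per cell in the differences was tested no further.

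Among themselves, the non-cycling cells varied most, in excess of counting noise and at a common scale of 20000 UMIs per cell, in the nuclear RNA Malat1, in mitochondrial transcripts (mt-Atp6, mt-Co3, mt-Co2), in the chemokines Ccl5, Cxcl10 and Ccl2, in the mineralisation inhibitor Mgp, in S100a6, in Gm42418, which overlaps ribosomal RNA and is uncertain, and in the myeloid genes Cd74 and Lyz2. Genes were ranked by the variance-to-mean ratio, which at the same relative spread is larger for more abundant genes. The ratio of Malat1 was 161, 187, 163 and 300 in vehicle mice 1 and 2 and digoxin mice 1 and 2, and that of Ccl5 was 188, 274, 162 and 176. Mgp was at 2672, 4177, 2600 and 2327 CPM, highest in vehicle mouse 2. Mitochondrial transcripts made up a median of 5.83%, 5.74%, 5.62% and 5.18% of UMIs, and 84 of the 4584 cells were above 20%.

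The effect of digoxin was tested in the non-cycling cells over the 4 mice. Of 14034 genes tested, 1 passed an adjusted p of 0.05 (0.00713%; limma with Benjamini-Hochberg adjustment), and 657 (4.68%) had an unadjusted p under 0.05. On recovered UMIs edgeR called 0 genes (559 at an unadjusted p under 0.05), limma-voom 0 (549) and DESeq2 31. The call was Chil3, a chitinase-like protein secreted by myeloid cells, with 0.300, 0.265, 3.87 and 4.58 CPM in vehicle mice 1 and 2 and digoxin mice 1 and 2. Both digoxin mice lay above both vehicle mice, and Chil3 rose by 2.02 on the log2(mean CPM + 1) scale (SE 0.15, limma adjusted p = 0.0163; edgeR 0.0683, limma-voom 0.189). Its size depended on the pseudocount, at 3.497 with 0.1 CPM and 0.47 with 10 CPM, and was 3.33 with edgeR, 3.3002 with limma-voom and 3.34 with DESeq2. The adjusted p of Chil3 was 9.1e-11 with DESeq2. No p is given for fits with 1 mouse left in a group, where the spread comes from the other group alone. In host macrophages Chil3 was at 96.0, 92.7, 433 and 199 CPM in the same order. In host neutrophils (11, 5, 34 and 23 cells) it was at 64.9, 286, 3103 and 712 CPM. The part of these cells in the difference was tested no further than by leaving out marked cells. In the non-cycling cells without markers of another type Chil3 was at 0.0612, 0.104, 0.906 and 0.177 CPM. In those cells Chil3 did not pass the filter on low values. That filter asks for a minimum level in as many mice as a group holds. In all non-cycling cells the digoxin mice alone could therefore bring Chil3 into the test. With no filter on low values its adjusted p was 0.113 (limma), and at a mean of at least 5 CPM it was not tested.

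The count of calls depended on the vehicle mice. Without vehicle mouse 1 limma called 336 genes (177 higher) and without vehicle mouse 2 it called 205 (126 higher), and the mouse left alone in its group is then assumed to vary like the others. Without digoxin mouse 1 it called 3 genes and without digoxin mouse 2 it called 5.

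Because fewer than 10 genes passed, the 10 genes with the smallest p at 20 CPM or more are given as values, and 0 of them passed the limma threshold (adjusted p 0.158 to 0.360). DESeq2 on recovered UMIs called all 10 (adjusted p 2.13e-06 to 0.0346). Nrep, a cytoplasmic protein linked to regeneration and fibroblast activation, was at 62.5, 59.2, 35.8 and 33.7 CPM in vehicle mice 1 and 2 and digoxin mice 1 and 2, a log2 difference of -0.79 (SE 0.09). Cilp, a cartilage matrix protein, was at 51.0, 49.3, 28.4 and 18.4 CPM, a difference of -1.10 (SE 0.18). Col15a1, a basement membrane collagen, was at 86.4, 60.5, 40.0 and 37.2 CPM, a difference of -0.89 (SE 0.16). The digoxin values of these 3 genes lay below both vehicle values. The microfibril protein Mfap4 (-0.70, SE 0.10), osteopontin, encoded by Spp1 (-0.55, SE 0.09), the matricellular protein Cyr61 (-0.52, SE 0.08) and the secreted C1qtnf6 (-0.49, SE 0.09) were lower in both digoxin mice as well. In host fibroblasts of vehicle mice 1 and 2 and digoxin mice 1 and 2, Cilp was at 672, 1238, 416 and 613 CPM. There Cyr61, at 532, 602, 391 and 337 CPM, and C1qtnf6 were also lower in both digoxin mice. Nrep, Mfap4, Col15a1 and Spp1 overlapped between the groups in these fibroblasts. Col15a1 is itself a host fibroblast marker, a list not used to leave cells out. The part of host fibroblasts was not tested. Over the main fit and 22 alternatives, which include leaving out each mouse, the log2 difference of Nrep ran from -0.94 to -0.66. That of Cilp ran from -1.40 to -0.80 and that of Col15a1 from -1.14 to -0.64. The genes were chosen on these same mice, so these ranges are not support. With 1 mouse left in a group the spread comes from the other group alone, so no p of those fits is given for these genes.

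The ubiquitin ligase gene Rnf217 was at 30.9, 31.6, 46.4 and 48.5 CPM, a log2 difference of 0.59 (SE 0.09). Srgn, a proteoglycan of the granules of blood cells, was at 18.1, 19.8, 33.1 and 30.4 CPM (0.72, SE 0.11), and Il1b, a cytokine of activated myeloid cells, at 19.6, 17.0, 33.1 and 53.8 CPM (1.16, SE 0.21). All 3 genes were higher in both digoxin mice. In the cells of the stricter rule the log2 difference was 0.29 for Srgn and 1.80 for Il1b, and that of Spp1 was -0.34. In host macrophages of vehicle mice 1 and 2 and digoxin mice 1 and 2, Srgn was at 1214, 1095, 1500 and 1488 CPM. Il1b was at 1588, 1280, 1747 and 1715 CPM in these macrophages, so the digoxin values were the higher ones for either gene. Host neutrophils (11, 5, 34 and 23 cells) had more, with Srgn at 3996, 4232, 2671 and 3362 CPM. Their Il1b was at 9931, 8320, 4335 and 6060 CPM, and among neutrophils the vehicle values were the higher ones for either gene. In non-cycling cells without markers of another type, Srgn was at 6.14, 7.27, 8.85 and 10.8 CPM and Il1b at 5.49, 5.17, 8.54 and 13.1 CPM, while Rnf217 was at 31.1, 31.8, 45.4 and 48.5 CPM. The levels of Srgn and Il1b were lower by more than 1 log2 unit in those cells, the groups still did not overlap, and the part of other cells in the difference was not tested.

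**Figure D4:**
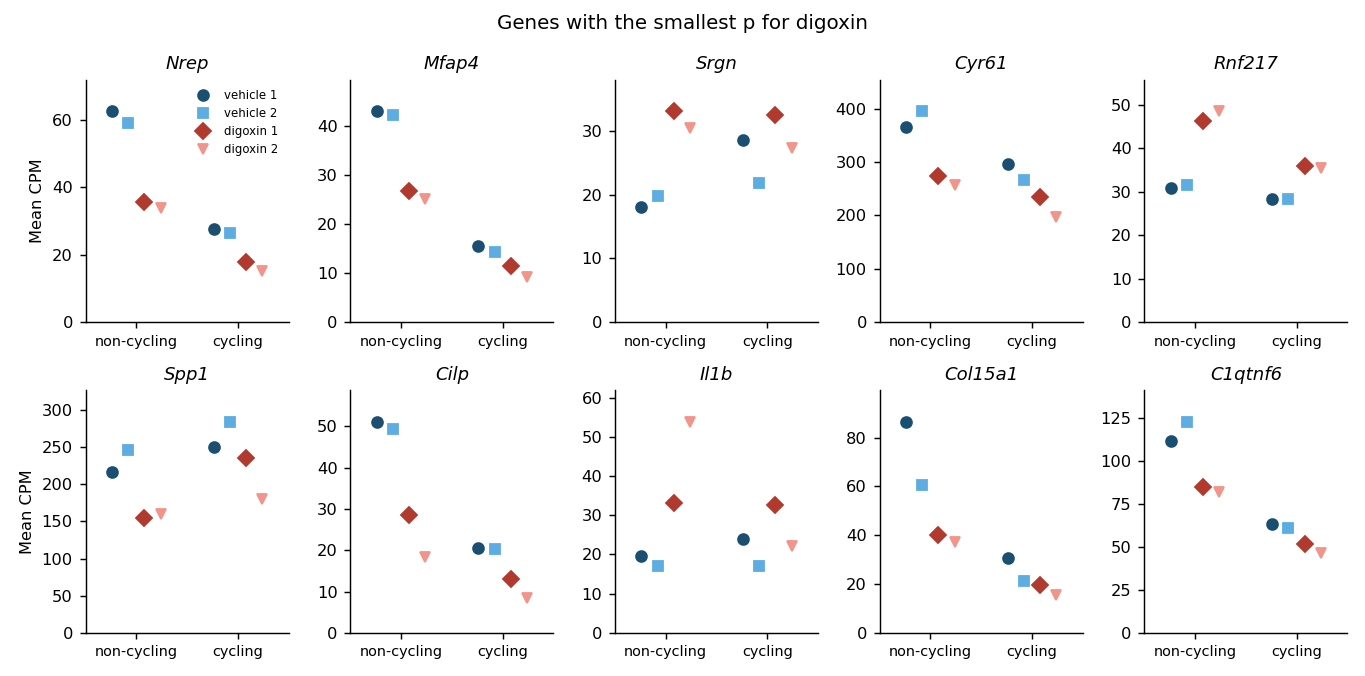
Mean CPM (vertical axes, from 0) of the 10 genes with the smallest p for digoxin, in non-cycling and in cycling malignant cells, with a point for each mouse (vehicle blue, digoxin red). In non-cycling cells the digoxin mice lie below the vehicle mice for 7 genes and above them for Srgn, Rnf217 and Il1b, and 0 of the 10 passed the adjusted threshold of limma, while DESeq2 called 10.

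Fap and Col1a1 were among the genes lower with digoxin. Fap, with the values given above, differed by -0.57 on the log2 scale (SE 0.11; adjusted p = 0.360 by limma), and Col1a1 by -0.34 (SE 0.08; adjusted p = 0.646 by limma). Both digoxin mice were below both vehicle mice for either gene, and neither passed the threshold. Over the main fit and 22 alternatives, which include leaving out each mouse, the log2 difference of Fap ran from -0.78 to -0.45. That of Col1a1 ran from -0.40 to -0.28. Cdkn2a differed by -0.08 (SE 0.07) and Ddx3y by 0.06 (SE 0.10).

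Of the 26 matrix genes, 0 were called for digoxin, 17 were lower in both digoxin mice and 0 higher in both, against 15.3% and 15.7% of all genes tested, with a median log2 difference of -0.26 against 0.00 over all genes. Col3a1 was at 3803, 3688, 2907 and 2990 CPM in vehicle mice 1 and 2 and digoxin mice 1 and 2. Postn (periostin) was at 2216, 1575, 1424 and 1259 CPM, and Dcn (decorin) at 2788, 3394, 2467 and 2189 CPM. For each of these genes the groups did not overlap. Thbs2, at 284, 321, 297 and 297 CPM, and the membrane metalloprotease Mmp14, at 271, 319.5, 300.4 and 285 CPM, overlapped between the groups. With the same weights over classes of UMIs per cell 18 of the 26 were lower in both digoxin mice, and the median was -0.25; leaving out each mouse in turn it stayed between -0.28 and -0.21. In cycling cells the median was -0.22.

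Of the mesenchymal list, 12 of 25 were lower in both digoxin mice and 1 higher (all genes 15.3% and 15.7%), with a median of -0.15 that was -0.074 without digoxin mouse 2 and -0.090 without vehicle mouse 2. The transcription factors Prrx1 and Twist1 overlapped between the groups, at 230, 254, 254 and 230 CPM and at 229, 246, 232 and 230 CPM. Snai2, a repressor of epithelial genes, was at 27.1, 29.1, 23.3 and 20.1 CPM and lower in both digoxin mice. Among 20 secreted genes associated with senescence, 7 were lower and 1 higher in both digoxin mice, with a median of -0.11. It was -0.025 without digoxin mouse 1 and turned to 0.013 under the stricter rule. Igfbp7, an insulin-like growth factor binding protein, was at 176, 184, 133 and 134 CPM. The chemokine Cxcl5, at 50.6, 44.6, 67.2 and 54.4 CPM, was the member higher in both.

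Genes of the cell cycle that the rule did not use were compared between the treatments within the non-cycling cells. Of 36 G2 and mitosis genes, 0 were called, 23 were higher in both digoxin mice (all genes 15.7%) and 0 lower, with a median log2 difference of 0.35 that ranged from 0.21 to 0.47 when a mouse was left out. Ccna2 was at 3.85, 2.90, 4.86 and 8.99 CPM, Birc5 at 12.8, 8.92, 13.5 and 24.98 CPM and Plk1, a mitotic kinase, at 0.808, 0.622, 1.67 and 1.90 CPM. Digoxin mouse 2 was the highest for each of them. This mouse also had the lowest share of non-cycling cells without any of the stricter rule's genes. Ccna2 and Birc5 are among those genes, so the low share is not a separate observation. In members of at least 20000 UMIs the list's median was 0.05, with 4 genes higher in both digoxin mice and 1 lower. With common weights over classes of UMIs per cell it was 0.28, with 16 genes higher in both. In cycling cells it was 0.13, with 0 of 36 higher and 0 lower in both digoxin mice (all genes in cycling cells 10.7% and 18.2%). Among the 29 list genes that the stricter rule does not set to 0, a choice made after seeing the data, 19 were higher in both digoxin mice with a median of 0.35 over all non-cycling cells. In the cells of the stricter rule 12 of these were higher and 1 lower, with a median of 0.11. Of 30 S phase genes 9 were higher in both digoxin mice and 1 lower, with a median of 0.13. In members of at least 20000 UMIs 5 were higher and 4 lower, with a median of 0.043, and without digoxin mouse 2 the median was 0.0069.

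**Figure D5:**
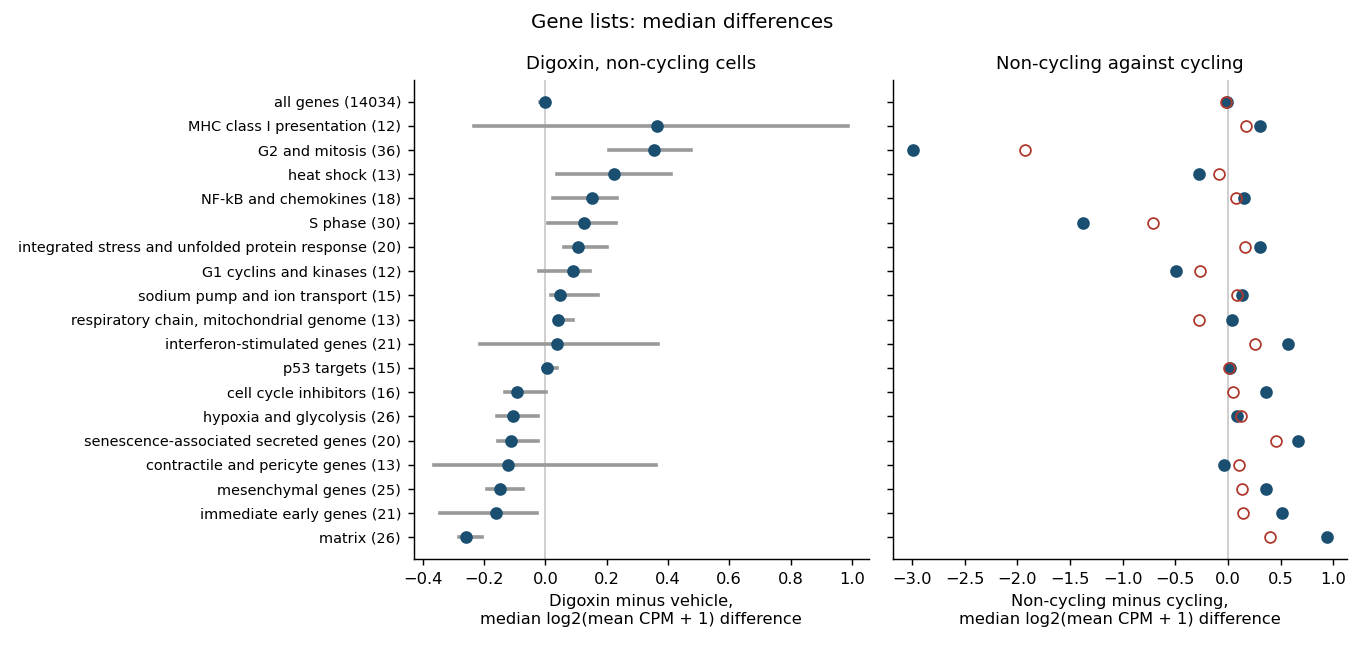
Median difference in log2(mean CPM + 1) over genes of each list. The left panel uses the genes tested for digoxin (number in brackets), and the right panel those above 1 CPM in either cell set. Left, digoxin minus vehicle in non-cycling cells: the point is the value over 4 mice and the bar the range when each mouse is left out in turn. Right, non-cycling minus cycling cells: filled points use all cells, open points the same weights over classes of UMIs per cell. The matrix list is lowest on the left at -0.26 and highest on the right at 0.94, or 0.40 on the common weights, where the secreted genes associated with senescence are at 0.46.

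In 5 other lists 0 genes were called, and the counts below stand against 15.7% of all genes higher and 15.3% lower in both digoxin mice. Of 20 genes of the integrated stress and unfolded protein response, 8 were higher in both digoxin mice and 0 lower, with a median of 0.11; Hspa5, the chaperone BiP of the endoplasmic reticulum, was at 712, 562, 747 and 927 CPM. Without cells marked for other types 4 of the 20 were higher, under the stricter rule 13, and in cycling cells 2 were higher and 2 lower with a median of 0.010. Of 18 NF-kB and chemokine genes 7 were higher and 1 lower; Nfkb1 was at 178, 151, 210 and 289 CPM, and the neutrophil attractant Cxcl2 at 185, 162, 216 and 371 CPM. Both were highest in digoxin mouse 2. Without cells marked for other types Cxcl2 was at 146.1, 135, 146.4 and 293 CPM, so that digoxin mouse 1 and vehicle mouse 1 were nearly level. Of 13 heat shock genes 5 were higher and 1 lower, with Cryab, a small heat shock protein, at 86.4, 82.5, 103 and 126 CPM. Under the stricter rule 2 of the 13 were higher (15.4%, all genes 15.6%) and 1 lower, with a median of 0.21. Of 26 hypoxia and glycolysis genes 2 were higher and 8 lower in both digoxin mice; the prolyl hydroxylase genes Egln1, at 17.4, 25.6, 26.4 and 37.0 CPM, and Egln3, at 16.9, 22.3, 14.4 and 12.3 CPM, lay on opposite sides. Of 21 immediate early genes 2 were higher and 6 lower; Ier2 was at 1118, 1146, 937 and 685 CPM. Single mice moved these medians: without digoxin mouse 2 that of NF-kB went from 0.15 to 0.023, that of heat shock from 0.22 to 0.038 and that of the immediate early genes from -0.16 to -0.027. Without digoxin mouse 1 the last of these was -0.34 and that of heat shock 0.41. Without vehicle mouse 2 the hypoxia median went from -0.11 to -0.025 and that of the stress response from 0.11 to 0.060.

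The sodium pump and ion transport list, the genes nearest to the known target of digoxin, had 15 members tested, of which 6 were higher and 1 lower in both digoxin mice (all genes 15.7% and 15.3%), with a median of 0.05. Under the stricter rule 3 were higher and 5 lower, and the median ran from 0.017 without digoxin mouse 1 to 0.17 without vehicle mouse 2. The pump's beta subunit gene Atp1b3 was at 66.9, 71.9, 74.3 and 78.2 CPM, and Sgk1, a kinase that regulates sodium transport, at 299.7, 359, 371 and 388 CPM. For both the digoxin mice were higher by less than 0.25 on the log2 scale. Fxyd5, a pump regulator, was at 106, 107, 89.1 and 102 CPM.

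The response to digoxin was then compared between non-cycling and cycling cells within each mouse. Of 16632 genes, 0 (0%) passed an adjusted p of 0.05 (limma on the differences within mice), with 708 at an unadjusted p under 0.05, and edgeR called 0 (614 at an unadjusted p under 0.05). The 5 genes with the smallest p at 20 CPM or more were Kctd11, Slc14a1, Aqp1, Rdh10 and Sox9. Aqp1, a water channel, was at 76.6, 82.9, 60.8 and 61.9 CPM in non-cycling cells and at 51.7, 48.0, 49.4 and 50.9 CPM in cycling cells, so the digoxin effect differed by -0.38 (SE 0.10, unadjusted p = 0.0114). Kctd11, an adaptor of a ubiquitin ligase (-0.33, SE 0.07), and the transcription factor Sox9 (-0.28, SE 0.08) differed in the same direction, and the urea transporter Slc14a1 (0.31, SE 0.08) and the retinol dehydrogenase Rdh10 (0.33, SE 0.09) in the other. The adjusted p of each was 1.00. For Col1a1 the effects were -0.34 in non-cycling and -0.31 in cycling cells, a difference of -0.03 (SE 0.13), and for Fap -0.57 and -0.41, a difference of -0.16 (SE 0.14). That these differences did not pass the test does not show that both cell sets responded alike.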

How the data were processed

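The authors deposited malignant and non-malignant cells separately, each with its cell properties. Expression values are the natural log of 1 plus UMIs per 10000 UMIs of the cell, and the deposited count of UMIs per cell turned 100% of the values above 0 into whole UMI counts within 0.01. Cell Ranger 3.0.2, Seurat 3.0.2 and mm10 are named, per the submitters' processing notes, and the rule that separated malignant cells is not given in the sources used here. Cell types of host cells are the authors' annotation. The cell name prefix gives the mouse, and the library numbered 3 belongs to vehicle replicate 2, per the deposited cell table. Columns outside the 4 samples numbered 0. Malignant cells carried 27610830 to 60611033 UMIs per mouse in the non-cycling set and 228350701 to 290170609 in the cycling set. Of 31498 cell barcodes 113 occurred in more than 1 library, on 39 of the non-cycling cells.

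For each mouse and cell set, per-cell CPM gave 1 mean per gene, whose log2(mean CPM + 1) entered a fit in limma 3.58.1 (variance trend, genes kept by filterByExpr on recovered UMIs, Benjamini-Hochberg, threshold 0.05). This scale understates changes of low genes. The fit was tested on simulated data. The p-values measure the spread between these mice. edgeR 4.0.16, limma-voom and DESeq2 1.42.0 on recovered UMIs were alternatives. No doublet caller was run, and cells with at least 2 UMIs of at least 3 markers of 1 of 7 other types (macrophage, T and NK, neutrophil, B, mast, endothelial, erythroid) were left out as an alternative added after seeing the data. Named genes are those past the threshold at 20 CPM or more, or, where fewer than 10 pass, the 10 with the smallest p (5 for the difference between cell sets), the 10 highest and 10 lowest between the cell sets, the 12 most variable, and the identity genes. Genes named from the lists, and Chil3, were chosen after their values were seen. The members of the set, the 22 gene lists and the 11 marker lists were chosen with earlier results of these data known. In total 12 genes of these lists had no row in the tables. Promoter sequences are from RefSeq, build GRCm38.p6.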

Additional observations from a re-analysis of the deposited data

How the results depend on the processing

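The count of genes called for digoxin in non-cycling cells was 1 with limma and became 0 with edgeR, limma-voom, no filter on low values (839 at an unadjusted p under 0.05), a mean of at least 5 CPM (353), the stricter rule for members (527), without cells with macrophage markers (638) and without cells with markers of other types (613). It was 3 with a pseudocount of 10 and 31 with DESeq2, where 19 genes were higher, and leaving out a mouse gave 3 to 336. The deviations of same-numbered mice from their group means had r = -0.24 over 14034 genes. With 2 mice a group the crossed numbers must give the opposite sign, so this value cannot decide whether the numbers pair mice. With the replicate number as a block the count was 4. With the numbers crossed, an alternative added after seeing the data, the count was 15. The cause of these moves was not tested, apart from the fewer cells or genes that some settings use. Within replicate numbers 1 and 2, the share of non-cycling cells differed by 3.36 and -8.82 percentage points. With 2 mice a group their mean must equal the main difference of -2.73, so the replicate block cannot check it. The difference in share was -6.88 to 1.42 when a mouse was left out, the sign turning without vehicle mouse 2. It was -4.14 to -1.47 under the other alternatives. The difference in digoxin effect between cell sets had 0 calls under all 21 alternatives. Common weights over classes of UMIs per cell reduced the genes higher in non-cycling cells from 112 to 0 and those lower from 335 to 103. Of the identity genes, Ddx3y (0.056) turned to -0.093 under the stricter rule and ranged from -0.017, without vehicle mouse 2, to 0.13 when a mouse was left out. Trp53 (0.029) turned to -0.023 without macrophage-marked cells and -0.075 without cells marked for other types, and ranged from -0.060, without digoxin mouse 2, to 0.12, being -0.033 without vehicle mouse 1. Neither was called. The 10 genes with the smallest p, Col1a1, Fap and Cdkn2a kept their direction in 22 alternatives and Chil3 in the 18 that tested it. Each of these genes had both digoxin mice on the same side of both vehicle mice. Leaving out a mouse could therefore not turn them, and the kept direction is not support. Other genes named for digoxin were not recomputed. With 2 mice a group, each test rests on few samples.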

Other observations

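The 12 genes of MHC class I presentation were each lowest in the non-cycling cells of vehicle mouse 2, the mouse whose host cells lacked Xist. H2-K1, which encodes a classical class I heavy chain, was at 412, 117, 266 and 309 CPM in vehicle mice 1 and 2 and digoxin mice 1 and 2, and the immunoproteasome subunit gene Psmb8 at 127, 32.3, 93.3 and 116 CPM. The list's median for digoxin was 0.36 over the 4 mice, 0.99 without vehicle mouse 1 and -0.23 without vehicle mouse 2, with 0 genes called. The part of the host in this difference was not tested.

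Some low genes rested on few cells. Hspb1, a small heat shock protein, was at 0.678, 2.02, 9.10 and 9.79 CPM, and a single cell held 58.9% and 57.3% of its UMIs in digoxin mice 1 and 2. Krt8, a keratin of simple epithelia, was at 8.48, 8.68, 2.14 and 1.01 CPM, and a single cell held 92.5% of its UMIs in vehicle mouse 1. Interferon-stimulated genes were higher in non-cycling than in cycling cells in 4 of 4 mice for 16 of 21 genes (background 38.3%), with a median log2 difference of 0.57, or 0.26 with common weights over classes of UMIs per cell. Within the non-cycling cells they were lowest in digoxin mouse 1 and highest in digoxin mouse 2 for Ifit1 (78.5, 83.8, 50.6 and 105 CPM) and Rsad2 (17.8, 31.6, 7.07 and 32.9 CPM), both antiviral genes.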
